A study of Homo sapiens with 6 samples.

Results

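The genes described here are 58 WNT signalling genes of the 26931 gene symbols in the expression files: the WNT ligands, their receptors and secreted inhibitors, the R-spondins, and the core of the beta-catenin branch down to the TCF/LEF factors. They were chosen by name, and no measured value entered the rule, though earlier results of these data were known. All symbols starting with WNT, FZD, DKK, SFRP or RSPO followed by a number were taken, together with LRP5, LRP6, LGR4, LGR5, ZNRF3, RNF43, WIF1, NKD1, NKD2, CTNNB1, APC, AXIN1, AXIN2, TCF7, TCF7L1, TCF7L2 and LEF1. By role, the set holds 19 ligands, 9 secreted inhibitors, 4 R-spondins, 10 frizzled receptors, 2 LRP co-receptors, 2 R-spondin receptors, 2 receptor-removing ligases, 2 NKD feedback inhibitors, 4 genes of the beta-catenin and destruction complex, and 4 TCF/LEF factors.

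The cells were TC32, an established Ewing sarcoma line whose tumour type is driven by a fusion that joins the gene of the RNA-binding protein EWSR1 to that of the ETS transcription factor FLI1. RNA was taken 48 h after transfection, and 3 groups were compared: siNeg cells received a negative control siRNA, siEWSR1 cells one directed at EWSR1, and siFLI1 cells one directed at FLI1. Each group had 2 libraries, all cells were of the same line in the same serum-containing medium, and the siRNAs were meant to reach the fusion from either of its genes. Values are FPKM, fragments scaled to transcript length and library size, so levels can be compared between genes.

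WNT ligands are secreted lipid-modified glycoproteins that bind frizzled receptors. Together with LRP5 or LRP6 they keep the destruction complex of APC, axins and kinases from degrading beta-catenin, which then works with TCF/LEF factors at target genes. WNT5A, WNT5B and WNT11 are best known for signalling without beta-catenin. Dickkopf proteins such as DKK1 block LRP5 and LRP6, SFRP proteins and WIF1 bind the ligands themselves, and R-spondins act through LGR receptors to hold off ZNRF3 and RNF43, which remove frizzled receptors from the cell surface. In Ewing sarcoma, DKK1 is known as a gene held low by the fusion and DKK2 as a gene that the tumours express.

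The libraries were of similar depth, with between 15159073 and 16298374 fragments read from the deposited intervals, and had 12079 to 12741 genes at 1 FPKM or more. EWSR1 stood at 46.5 and 47.2 FPKM with siNeg. The siEWSR1 libraries had 34.6 and 32.3 FPKM of it, a log2 change of -0.48 ± 0.06 (SE; limma, adjusted p = 0.000444), and the siFLI1 libraries 51.2 and 50.2. FLI1 was at 10.9 FPKM in each siNeg library. The siEWSR1 libraries had 10.4 and 10.6 FPKM of it, and the siFLI1 libraries 8.98 and 8.56, a log2 change of -0.29 ± 0.06 (adjusted p = 0.00423). Gene-level values add normal and fusion transcripts. All 8 Ewing sarcoma markers examined, CD99 and NKX2-2 among them, were at 1 FPKM or more in every library, and their sum was 997 to 1020 FPKM with siNeg, 495 to 606 with siEWSR1 and 532 to 580 with siFLI1. All 6 blood and all 6 endothelial markers stayed under 1 FPKM, with CD3E at 0 in all libraries. Of 6 fibroblast markers, 3 stayed under 1 FPKM, and LUM and FAP were at 0 in both siNeg libraries. The fibroblast list nevertheless summed to 19.0 to 21.3 FPKM with siNeg, 129 to 131 with siEWSR1 and 165 to 177 with siFLI1. COL1A1 led that sum with siEWSR1 and siFLI1, and PDGFRB with siNeg. PDGFRA went from 0.331 and 0.315 FPKM with siNeg to between 8.11 and 10.96 in the other libraries. Of 8 epithelial markers, 5 reached 1 FPKM somewhere, with sums of 24.8 to 26.0, 33.7 to 34.9 and 42.3 to 43.2 FPKM. KRT18 led the sum in every library, at 20.6 to 27.3 FPKM, while EPCAM stayed at or under 0.129. CDH3 rose from 0.963 and 1.19 FPKM with siNeg to 12.4 and 13.9 with siFLI1, with the siEWSR1 libraries in between. ESRP1 fell from 2.41 and 1.24 FPKM with siNeg to at or under 0.0758 in the other libraries. The part of these markers in the results below was not tested, and in bulk RNA fewer cells of a type and less RNA per cell cannot be told apart.

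Of the 58 genes, 31 reached 1 FPKM in at least 2 libraries and were tested, and 27 did not. Of the 31, 23 were at 1 FPKM or more in all 6 libraries. A further 5 (DKK1, SFRP1, WNT11, RSPO3 and TCF7) were tested only through the siEWSR1 or siFLI1 libraries, 2 (NKD1 and SFRP2) only through the siNeg libraries, and 1 (FZD5) through a mix. Genes that enter through 1 side are bound to differ, so counts over the 31 describe them and support nothing further. Of the 27, DKK4, FZD10, SFRP5 and WNT7A were listed at 0 in all libraries, 15 in all stayed under 0.1 FPKM, and 12 reached 0.1 FPKM in at least 1 library.

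With siEWSR1, 15 of the 31 tested genes were higher than with siNeg, 6 were lower and 10 did not pass (limma on log2(FPKM + 0.5), Benjamini-Hochberg adjusted p under 0.05 over 13043 genes). That is 67.7% of the 31, against 64.2% of all genes tested, of which 33.2% were higher and 31% lower. With siFLI1, 15 were higher, 5 lower and 11 did not pass, 64.5% against 65.3% of all genes, of which 35.7% were higher and 29.6% lower. The share of WNT genes called was thus near the background in both comparisons. Among the 23 genes measured in every library, 10 were higher and 4 lower with siEWSR1, and 10 were higher and 3 lower with siFLI1. The median log2 change of the 31 was 0.15 with siEWSR1 and 0.25 with siFLI1, against 0.0071 and 0.041 over all genes tested. With quantile normalization the splits moved to 12 higher and 8 lower with siEWSR1 and 10 higher and 9 lower with siFLI1. The 2 comparisons share the siNeg libraries, so their values are given side by side, and differences between the siRNAs come from the direct contrast.

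At a change of at least 2-fold on this scale, 7 genes were higher and 2 lower with siEWSR1, where 7.91% and 4.59% of all genes were. With siFLI1, 9 genes were at least 2-fold higher and none was lower, where 9.32% and 4.59% of all genes were. By log2 change, DKK1, SFRP1, WNT11 and TCF7L2 stood highest in both comparisons. DKK1, SFRP1, WNT11 and RSPO3, each at least 2-fold higher in both, were tested only through the siEWSR1 or siFLI1 libraries. They were bound to differ, so the counts cannot be read as an excess over the shares of all genes. The others at least 2-fold higher were LGR4, TCF7L1 and TCF7L2 with either siRNA, and DKK3 and WNT5B with siFLI1. These were at 1 FPKM or more in every library. Of the frizzled receptors, 6 of 8 tested with siEWSR1 and 5 of 8 with siFLI1 did not pass the adjusted p. Of all genes tested, 64.2% with siEWSR1 and 65.3% with siFLI1 did pass. FZD3 and FZD5 passed as lower with quantile normalization.

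**Figure D1:**
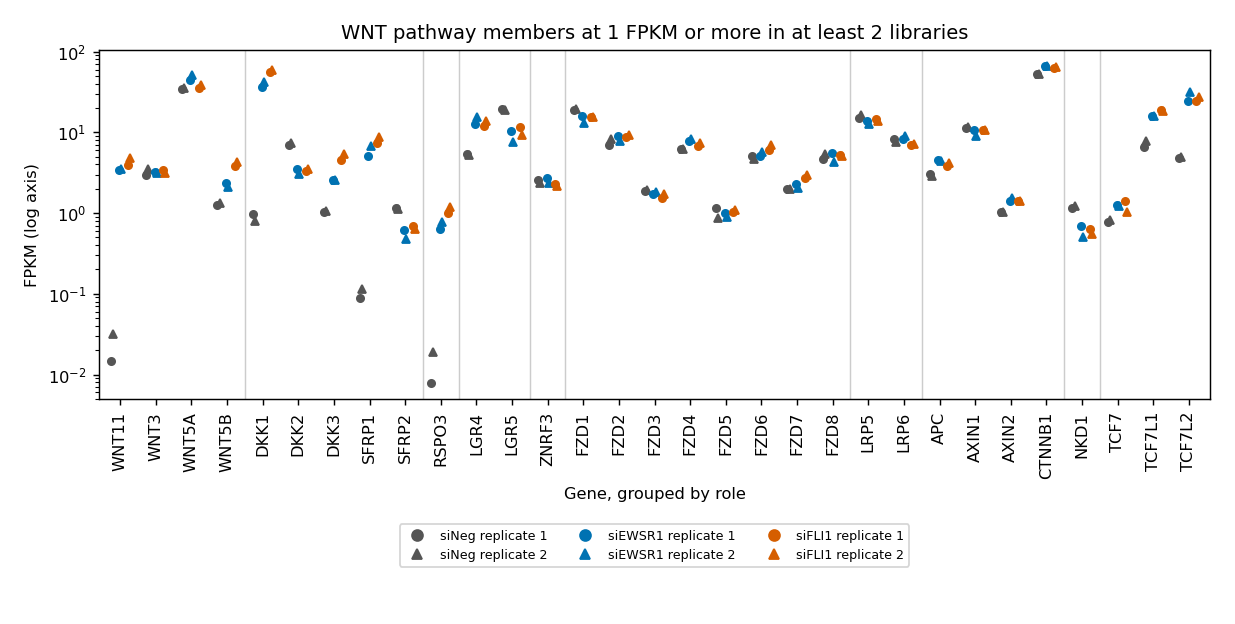
FPKM of the 31 tested WNT genes in each of the 6 libraries, on a log axis, grouped by role; circles and triangles are replicates 1 and 2. DKK1, SFRP1, WNT11 and RSPO3 show the widest gaps between the siNeg libraries and the others, and frizzled receptors lie close together.

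**Figure D2:**
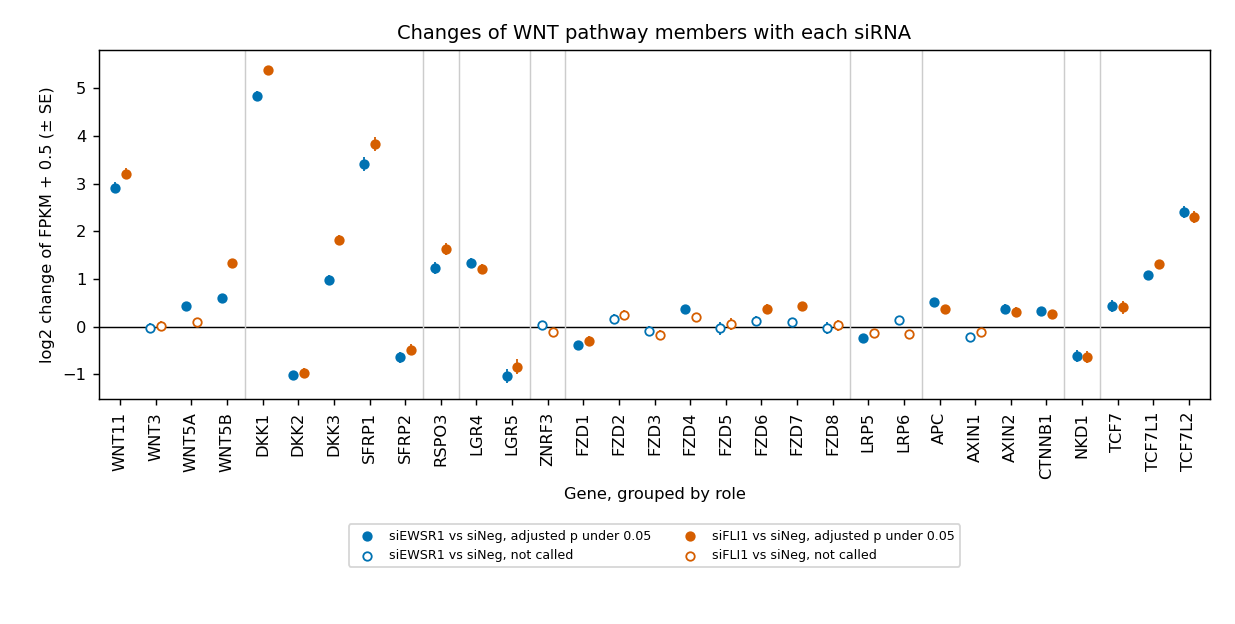
Log2 change of FPKM + 0.5 against siNeg for the same 31 genes, with standard errors as bars; filled points passed an adjusted p of 0.05. DKK1 stands highest, at 4.85 with siEWSR1 and 5.38 with siFLI1, and DKK2, LGR5, SFRP2 and NKD1 lie below 0 with both.

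Promoters of 3 genes are shown because these genes, an inhibitor, an R-spondin and a TCF factor, were higher with either siRNA and had an entry in the RefSeq promoter table (GRCh38.p14, 250 bases before to 50 after the start), which matched 40 of the 58 symbols. WNT11, DKK2, LGR5 and AXIN2 were not matched. TCF7L1, LGR4 and WNT5B, among others also higher with either siRNA, were matched and are not shown. The 3 windows are chr10:52314031-52314330 for DKK1, chr6:127118421-127118720 for RSPO3 and chr10:112949997-112950296 for TCF7L2, all on the plus strand and given 5′ to 3′. Capitals mark a tandem GGAA repeat (GGAAGGAA, either strand), the kind of sequence that ETS factors recognise.
DKK1: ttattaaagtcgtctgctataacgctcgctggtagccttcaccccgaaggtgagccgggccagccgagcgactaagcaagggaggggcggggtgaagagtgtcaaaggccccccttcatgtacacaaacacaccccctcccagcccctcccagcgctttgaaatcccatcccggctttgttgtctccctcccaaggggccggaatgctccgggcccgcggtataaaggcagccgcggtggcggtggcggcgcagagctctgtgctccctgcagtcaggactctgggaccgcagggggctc
RSPO3: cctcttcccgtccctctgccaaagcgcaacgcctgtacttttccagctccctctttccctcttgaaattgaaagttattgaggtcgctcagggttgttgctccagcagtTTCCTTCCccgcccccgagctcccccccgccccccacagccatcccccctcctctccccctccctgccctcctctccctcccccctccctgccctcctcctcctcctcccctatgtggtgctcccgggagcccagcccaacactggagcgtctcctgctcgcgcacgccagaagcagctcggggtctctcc
TCF7L2: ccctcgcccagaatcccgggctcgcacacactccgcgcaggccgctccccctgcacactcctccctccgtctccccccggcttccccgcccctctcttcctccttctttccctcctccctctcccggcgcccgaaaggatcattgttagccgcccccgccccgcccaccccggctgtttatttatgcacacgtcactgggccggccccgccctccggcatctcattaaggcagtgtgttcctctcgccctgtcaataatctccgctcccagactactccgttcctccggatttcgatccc
Of the 3 windows, that of RSPO3 held the tandem GGAA, on the reverse strand at position -141 from the start. It was the only one of the 40 promoters to hold it, where 3.674% of the 35116 promoters in the table do. The exact string CTTTGAT, a form of the TCF/LEF core, was found on neither strand in any of the 40, where 2.617% of all promoters hold it. Other forms of that core were not searched. CACGTG, the E-box core, was in 1 of the 40, that of RSPO4, where 7.256% of all promoters hold it. Median GC content was 70.83% over the 40 and 58.67% over all. A match is a description of the letters and no binding site, and no match says only that these letters are not in the window.

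Among the ligands, WNT5A was by far the most abundant, WNT11 appeared from near 0 with either siRNA, and WNT5B rose. WNT5A (hg19, chromosome 3, 55499743 to 55521670) stood at 34.3 and 35.9 FPKM with siNeg, 44.0 and 51.0 with siEWSR1, and 35.8 and 39.0 with siFLI1. Both siEWSR1 libraries lay above all others, while siFLI1 overlapped siNeg. The log2 change was 0.43 ± 0.08 with siEWSR1 (adjusted p = 0.00457) and 0.09 ± 0.08 with siFLI1 (adjusted p = 0.379). The difference between the siRNAs, 0.34 ± 0.08, did not pass (adjusted p = 0.0789).

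WNT11 (chromosome 11, 75897370 to 75917574), a ligand of convergent extension movements in embryos, stood at 0.0148 and 0.0319 FPKM with siNeg, 3.42 and 3.47 with siEWSR1, and 3.88 and 4.87 with siFLI1. In the first siNeg library the deposited interval ran from 0 to 0.0444 FPKM, and the intervals imply 1 and 2 fragments with siNeg against 218 and 213 with siEWSR1 and 230 and 297 with siFLI1. No library with an siRNA against the fusion partners came near the siNeg level. On the log2(FPKM + 0.5) scale the change was 2.91 ± 0.12 with siEWSR1 (adjusted p = 9.06e-06) and 3.21 ± 0.12 with siFLI1 (adjusted p = 5.57e-06). The size depends on the added 0.5, and with 0.1 the changes were 4.85 and 5.18.

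WNT5B (chromosome 12, 1726222 to 1756378), the close paralog of WNT5A, went from 1.27 and 1.32 FPKM with siNeg to 2.34 and 2.09 with siEWSR1 and to 3.81 and 4.24 with siFLI1. None of the 3 groups overlapped. The log2 change was 0.60 ± 0.09 with siEWSR1 (adjusted p = 0.0016) and 1.33 ± 0.09 with siFLI1 (adjusted p = 5.15e-05). With quantile normalization the change with siEWSR1 was 0.31. WNT5B was higher with siFLI1 than with siEWSR1, by a log2 difference, siEWSR1 minus siFLI1, of -0.73 ± 0.09 (adjusted p = 0.0184). This call was lost in the fit of these groups alone (adjusted p = 0.0523), without either siFLI1 library (0.0957 and 0.163), without the second siEWSR1 library (0.0621) and without the first siNeg library (0.0512).

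WNT3, which signals through beta-catenin, was the remaining tested ligand and stayed between 2.96 and 3.51 FPKM in all libraries, with log2 changes of -0.03 and 0.01 that did not pass. The summed FPKM of the 19 ligands was 39.6 and 41.7 with siNeg, 55.8 and 62.5 with siEWSR1, and 50.1 and 54.5 with siFLI1. WNT5A made up 86.7% and 86.0% of it with siNeg, 78.9% and 81.5% with siEWSR1, and 71.6% in both siFLI1 libraries. The number of ligands at 0.1 FPKM or more was 6 in both siNeg libraries and 12 or 13 in the others. Over all genes, the number at 1 FPKM or more was 12079 and 12133 with siNeg and 12611 to 12741 in the others. How many of all genes reached 0.1 FPKM was not counted, so the ligand count cannot be read as particular to ligands.

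The other 15 ligands stayed under the level filter. WNT10A stood at 0.0117 and 0 FPKM with siNeg, 0.456 and 0.514 with siEWSR1, and 0.570 and 0.514 with siFLI1. WNT6, its neighbour on chromosome 2, stood at 0.0170 and 0.0367 FPKM with siNeg, 0.705 and 0.563 with siEWSR1, and 0.357 and 0.391 with siFLI1. WNT9A was listed at 0 in both siNeg libraries and reached 0.276 and 0.445 FPKM with siEWSR1 and 0.433 and 0.618 with siFLI1. For these genes the groups with and without an siRNA against a fusion partner did not overlap, at levels well under 1 FPKM. WNT16 ran the other way, from 0.410 and 0.350 FPKM with siNeg to 0.195 and 0.184 with siEWSR1 and 0.168 and 0.188 with siFLI1. WNT2B, WNT10B, WNT4, WNT8B and WNT9B had at least 1 library between 0.1 and 0.6 FPKM, and WNT1, WNT2, WNT3A, WNT7B and WNT8A were under 0.1 throughout.

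A fit without the level filter covered 21935 genes and 23 of the 27 low genes, since the 4 at 0 in all libraries could not be tested. Of these 23, 8 were called higher and 1 lower with siEWSR1, where 42.7% of all genes were called, 24.2% higher and 18.6% lower. With siFLI1, 11 were higher and 1 lower, where 44.4% of all genes were called, 26.5% higher and 17.9% lower. WNT10A had log2 changes of 0.96 ± 0.05 (adjusted p = 0.00069) and 1.04 ± 0.05 (adjusted p = 0.000474) in that fit. WNT6 had 1.10 ± 0.07 (adjusted p = 0.000986) and 0.73 ± 0.07 (adjusted p = 0.00226). WNT9A had 0.78 ± 0.13 (adjusted p = 0.0104) and 1.03 ± 0.13 (adjusted p = 0.00426). WNT16, the low gene called lower, had -0.35 ± 0.05 (adjusted p = 0.0057) and -0.37 ± 0.05 (adjusted p = 0.00437). The added 0.5 shrinks changes at such levels, and the direct contrast of the siRNAs called none of the 23, where it called 0.401% of all genes.

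**Figure D3:**
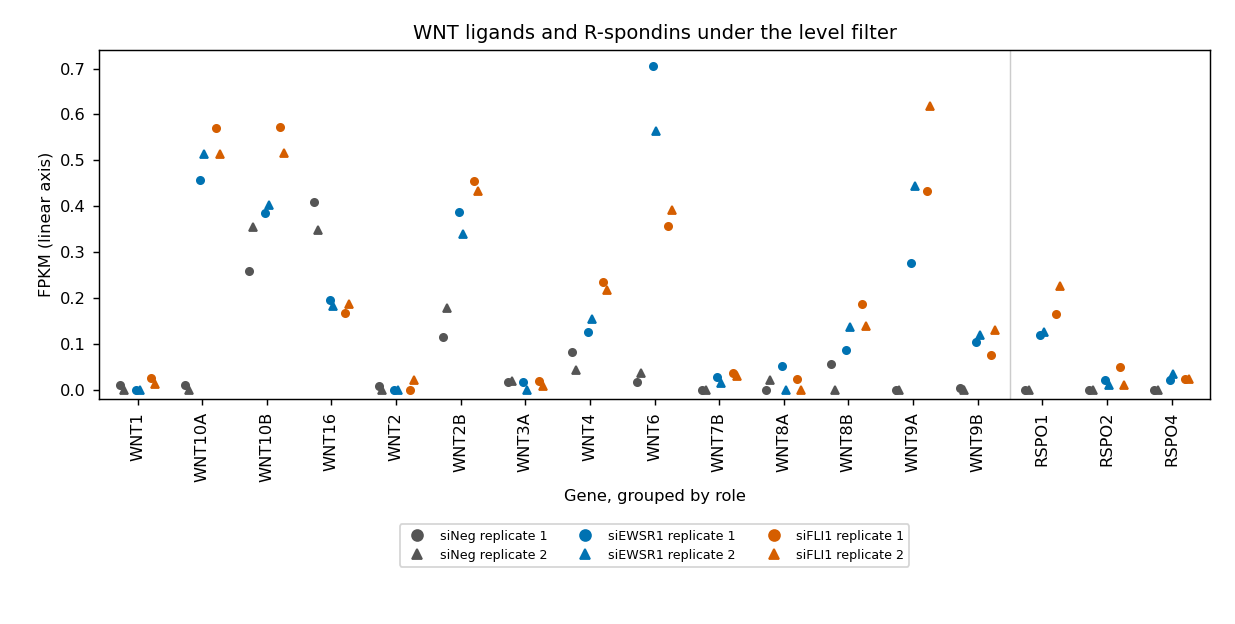
FPKM of the ligands and R-spondins under the level filter and above 0 in some library, on a linear axis; circles and triangles are replicates 1 and 2. WNT10A, WNT6, WNT9A and RSPO1 lie near 0 with siNeg and higher with siEWSR1 and siFLI1, and WNT16 shows the opposite order.

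Among the secreted inhibitors, DKK1, SFRP1 and DKK3 were higher and DKK2 and SFRP2 lower with either siRNA. DKK1 (chromosome 10, 54074041 to 54077417), whose promoter is shown above, stood at 0.971 and 0.806 FPKM with siNeg, 36.5 and 42.6 with siEWSR1, and 55.3 and 59.1 with siFLI1. Groups did not overlap, and siFLI1 was the highest. The change on the log2(FPKM + 0.5) scale was 4.85 ± 0.10 with siEWSR1 (28.8-fold, adjusted p = 1.62e-06) and 5.38 ± 0.10 with siFLI1 (41.6-fold, adjusted p = 8.77e-07). The difference between the siRNAs was -0.53 ± 0.10 (adjusted p = 0.0411) and lost its call in 13 of 18 alternative fits, with adjusted p-values between 0.0224 and 0.245 over all 18.

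DKK2 (chromosome 4, 107842959 to 107957453), a Dickkopf that can act for or against LRP6 signalling, stood at 6.96 and 7.33 FPKM with siNeg. It fell to 3.54 and 3.03 with siEWSR1 and to 3.30 and 3.52 with siFLI1. Both siNeg libraries were above all others. DKK2 changed on the log2 scale by -1.02 ± 0.09 (adjusted p = 0.000144) with siEWSR1 and -0.97 ± 0.09 (adjusted p = 0.000156) with siFLI1.

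DKK3 (chromosome 11, 11984543 to 12030917), a divergent Dickkopf that does not act on LRP6 like DKK1, stood at 1.03 and 1.06 FPKM with siNeg, 2.55 and 2.58 with siEWSR1, and 4.56 and 5.42 with siFLI1. None of the 3 groups overlapped. The log2 change was 0.99 ± 0.10 with siEWSR1 (adjusted p = 0.000238) and 1.82 ± 0.10 with siFLI1 (adjusted p = 1.9e-05). The difference between the siRNAs was -0.84 ± 0.10 (adjusted p = 0.0159), which did not pass without the first siFLI1 library (0.0624) or without the second (0.139).

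SFRP1, a frizzled-related protein that binds WNT ligands, stood at 0.0895 and 0.116 FPKM with siNeg, 5.13 and 6.82 with siEWSR1, and 7.40 and 8.77 with siFLI1. Both siNeg libraries were far below all others. The log2 change was 3.41 ± 0.14 (adjusted p = 1.02e-05) with siEWSR1 and 3.83 ± 0.14 (adjusted p = 6.14e-06) with siFLI1. SFRP2, of the same family, went down, from 1.14 and 1.12 FPKM with siNeg to 0.613 and 0.472 with siEWSR1 and 0.693 and 0.640 with siFLI1. On the log2 scale it changed by -0.65 ± 0.12 (adjusted p = 0.00312) with siEWSR1 and -0.48 ± 0.12 (adjusted p = 0.0105) with siFLI1, and the second did not pass without the second siFLI1 library (adjusted p = 0.0538). With quantile normalization the SFRP2 changes were -1.20 and -1.06. SFRP4 and WIF1 never exceeded 0.0202 FPKM, and SFRP5 and DKK4 were at 0.

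The 9 inhibitors summed to 10.2 and 10.4 FPKM with siNeg, 48.4 and 55.5 with siEWSR1, and 71.2 and 77.5 with siFLI1. DKK2 made up 68.2% and 70.2% of this sum with siNeg, but 7.32% and 5.45% with siEWSR1 and 4.64% and 4.55% with siFLI1. DKK1 went from 9.52% and 7.72% with siNeg to 75.5% and 76.7% with siEWSR1 and 77.6% and 76.3% with siFLI1. Thus the leading Dickkopf transcript was DKK2 in the control libraries and DKK1 in the other 4.

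**Figure D4:**
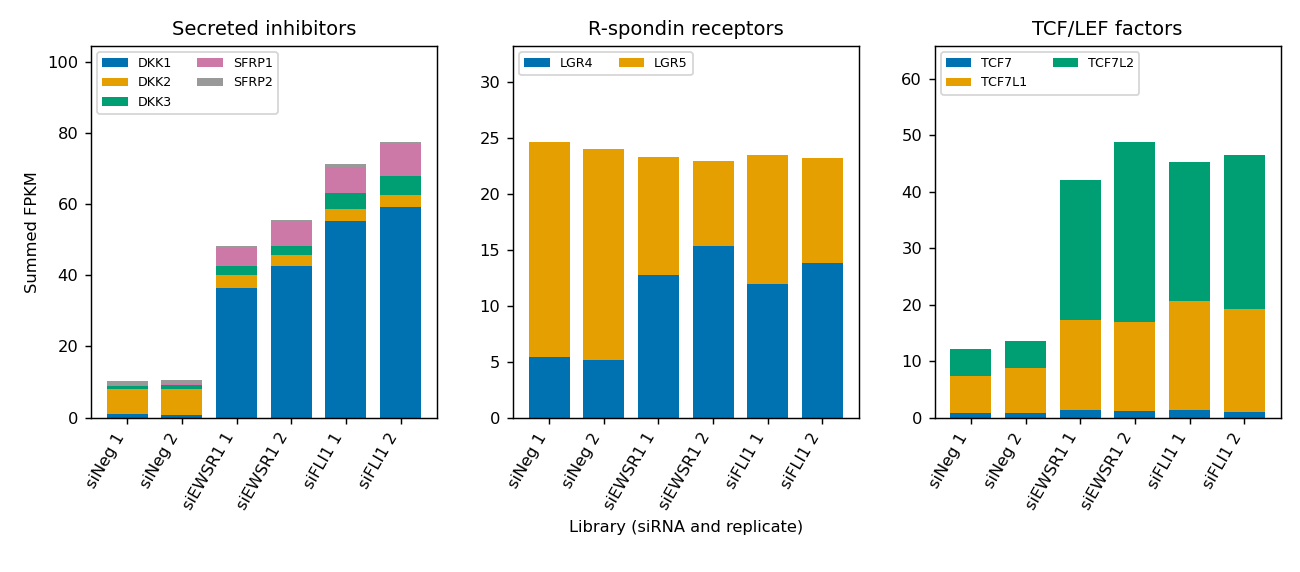
Summed FPKM per library of the secreted inhibitors, the R-spondin receptors and the TCF/LEF factors, stacked by gene; genes near 0 are left out. Inhibitors go from mostly DKK2 to mostly DKK1, LGR5 gives way to LGR4 in a sum that stays between 23.0 and 24.6 FPKM, and TCF7L2 and TCF7L1 both grow. LGR6, another R-spondin receptor outside the set, is not in that sum and was higher with either siRNA.

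The R-spondins, secreted proteins that raise the cell's response to WNT, were close to absent with siNeg, where their sum was 0.0077 and 0.0188 FPKM. RSPO3 (chromosome 6, 127440048 to 127520626) stood at 0.0077 and 0.0188 FPKM with siNeg. It reached 0.636 and 0.785 with siEWSR1 and 1.01 and 1.17 with siFLI1. Each of the other 4 libraries was above both siNeg libraries. The log2 change was 1.24 ± 0.13 with siEWSR1 (adjusted p = 0.000314) and 1.63 ± 0.13 with siFLI1 (adjusted p = 8.99e-05). These sizes depend on the added constant: they were 2.83 and 3.39 with 0.1, and 0.75 and 1.04 with 1. With quantile normalization the siEWSR1 change was 0.37 and did not pass (adjusted p = 0.116). RSPO1 was at 0 with siNeg and between 0.12 and 0.227 FPKM in the others, and RSPO2 and RSPO4 never exceeded 0.0497 FPKM.

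The 2 R-spondin receptors of the set changed in opposite directions. LGR6, a further R-spondin receptor outside the set and not in the sum below, was higher with either siRNA. LGR4 (chromosome 11, 27387508 to 27494334) stood at 5.38 and 5.17 FPKM with siNeg, 12.8 and 15.3 with siEWSR1, and 11.9 and 13.8 with siFLI1, with log2 changes of 1.33 ± 0.11 (adjusted p = 0.000102) and 1.21 ± 0.11 (adjusted p = 0.00013). LGR5 (chromosome 12, 71833550 to 71980088), known as a stem cell marker and WNT target in the intestine, stood at 19.2 and 18.8 FPKM with siNeg, 10.5 and 7.67 with siEWSR1, and 11.5 and 9.36 with siFLI1. On the log2 scale it changed by -1.04 ± 0.15 (adjusted p = 0.00132) and -0.84 ± 0.15 (adjusted p = 0.00322). For neither gene did siNeg overlap the other groups. The ratio of LGR5 to LGR4 FPKM went from 3.58 and 3.64 with siNeg to 0.824 and 0.501 with siEWSR1 and 0.965 and 0.678 with siFLI1, while their sum stayed between 23.0 and 24.6 FPKM in all 6 libraries.

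Of the ligases that R-spondins hold off, ZNRF3 stayed between 2.18 and 2.70 FPKM and did not pass in either comparison, with log2 changes of 0.03 and -0.11. With quantile normalization it passed as lower with siFLI1 (-0.37, adjusted p = 0.011). RNF43 was at or under 0.0174 FPKM in every library.

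Frizzled receptors bind the ligands. Their summed level was 46.8 and 49.1 FPKM with siNeg, 48.7 and 44.2 with siEWSR1, and 47.6 and 50.6 with siFLI1, so the groups overlapped. FZD1, the most abundant, went from 18.7 and 19.7 FPKM with siNeg to 16.0 and 13.1 with siEWSR1 and 15.3 and 15.7 with siFLI1. FZD1 changed on the log2 scale by -0.40 ± 0.10 (adjusted p = 0.0105) and -0.30 ± 0.10 (adjusted p = 0.0307). The siFLI1 call was lost in each fit that left out a siNeg or siFLI1 library. The siEWSR1 call was lost without the second siNeg library, and the siEWSR1 change was -0.26 without the second siEWSR1 library.

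FZD4 stood at 6.14 and 6.13 FPKM with siNeg, 7.77 and 8.35 with siEWSR1, and 6.72 and 7.47 with siFLI1. It passed as higher with siEWSR1 (0.37 ± 0.07, adjusted p = 0.00517) but not with siFLI1 (0.19 ± 0.07, adjusted p = 0.0586), where it passed with upper quartile scaling and without the first siFLI1 library. The difference between the siRNAs did not pass (0.17 ± 0.07, adjusted p = 0.227). FZD4 overlaps PRSS23, which went from 1.13 and 1.23 FPKM with siNeg to 2.28 to 4.36 in the others, so reads in the shared stretch cannot be assigned where strand was not used. FZD6 stood at 5.15 and 4.72 FPKM with siNeg, 5.12 and 5.73 with siEWSR1, and 6.0 and 7.06 with siFLI1. It passed as higher with siFLI1 (0.37 ± 0.10, adjusted p = 0.017) and not with siEWSR1 (0.12 ± 0.10, adjusted p = 0.317), and the siFLI1 call was lost with quantile normalization and without the second siNeg or second siFLI1 library. FZD7 passed with siFLI1 and not with siEWSR1, at 2.00 ± 0.02 FPKM with siNeg and 2.86 ± 0.16 with siFLI1 (SD, n = 2; log2 change 0.43 ± 0.09, limma adjusted p = 0.00473), a call lost with quantile normalization (0.17, adjusted p = 0.12). Its difference between the siRNAs, -0.34, did not pass (adjusted p = 0.0821).

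FZD2 stood at 6.90 and 8.16 FPKM with siNeg, 9.07 and 7.80 with siEWSR1, and 8.85 and 9.22 with siFLI1. FZD8 stood at 4.72 and 5.36 FPKM with siNeg, 5.54 and 4.34 with siEWSR1, and 5.17 and 5.06 with siFLI1. FZD2, FZD8, FZD3 and FZD5 did not pass in either comparison, with log2 changes between -0.17 and 0.25. With quantile normalization FZD3 passed as lower (-0.34, adjusted p = 0.024, and -0.48, adjusted p = 0.00636), as did FZD5 (-0.48, adjusted p = 0.02, and -0.44, adjusted p = 0.0271). FZD2 passed as higher with siFLI1 in 5 alternatives, at 0.25 to 0.37. FZD9 never exceeded 0.274 FPKM and FZD10 was at 0.

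The LRP co-receptors, which DKK1 blocks, were expressed in all libraries. LRP5 stood at 14.9 and 16.6 FPKM with siNeg, 13.8 and 12.5 with siEWSR1, and 14.4 and 14.0 with siFLI1. LRP5 passed as lower with siEWSR1 (-0.25 ± 0.08, adjusted p = 0.029) and not with siFLI1 (-0.14 ± 0.08, adjusted p = 0.159). The siEWSR1 call was lost without the level filter (adjusted p = 0.057), with upper quartile scaling (0.0696) and with only the 2 groups compared in the fit (0.0517). It was also lost without the second siNeg, second siEWSR1 or second siFLI1 library. LRP6 stood at 8.22 and 7.56 FPKM with siNeg, 8.32 and 9.10 with siEWSR1, and 6.98 and 7.15 with siFLI1. Log2 changes of LRP6, 0.13 and -0.15, did not pass, nor did the difference between the siRNAs (0.28 ± 0.07, adjusted p = 0.0859). With quantile normalization LRP6 passed as lower with siFLI1 (-0.22, adjusted p = 0.0448).

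In the cytoplasm, CTNNB1 (chromosome 3, 41240942 to 41281939), which encodes beta-catenin, stood at 52.7 and 52.6 FPKM with siNeg, 66.7 and 66.6 with siEWSR1, and 62.9 and 64.4 with siFLI1. Groups did not overlap, and the log2 change was 0.34 ± 0.05 (adjusted p = 0.00097) and 0.27 ± 0.05 (adjusted p = 0.00241). APC, the scaffold of the destruction complex, went from 2.97 ± 0.17 FPKM with siNeg to 4.49 ± 0.02 with siEWSR1 and 4.01 ± 0.25 with siFLI1 (SD, n = 2). The log2 changes of APC were 0.53 ± 0.08 (limma, adjusted p = 0.0013) and 0.38 ± 0.08 (adjusted p = 0.00531), the latter 0.18 with quantile normalization, where the call was lost (adjusted p = 0.0681). AXIN1, the constitutive axin, stood at 11.3 and 11.8 FPKM with siNeg, 10.8 and 9.01 with siEWSR1, and 10.7 and 10.6 with siFLI1, and did not pass in either comparison. With siEWSR1 it passed as lower once the first siEWSR1 library was left out (-0.34, adjusted p = 0.00732). These are RNA levels; beta-catenin is regulated mainly as a protein, which was not measured.

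AXIN2 and NKD1, feedback genes that beta-catenin is known to induce, moved apart. AXIN2, an inducible axin, went from 1.04 and 1.02 FPKM with siNeg to 1.42 and 1.55 with siEWSR1 and 1.41 and 1.39 with siFLI1. On the log2 scale it changed by 0.38 ± 0.09 (adjusted p = 0.0114) with siEWSR1 and 0.31 ± 0.09 (adjusted p = 0.0229) with siFLI1, but with quantile normalization the siEWSR1 change was 0.05 (adjusted p = 0.683) and the siFLI1 direction flipped (-0.063, adjusted p = 0.601). Neither AXIN2 call held in fits that left out a siNeg library. The siEWSR1 call was also lost without the second siEWSR1 library, and the siFLI1 call without either siFLI1 library and with median centring. NKD1, which binds Dishevelled, went from 1.16 and 1.22 FPKM with siNeg to 0.693 and 0.510 with siEWSR1 and 0.629 and 0.552 with siFLI1. On the log2 scale it changed by -0.62 ± 0.13 (adjusted p = 0.00509) and -0.63 ± 0.13 (adjusted p = 0.00465), and -1.14 and -1.19 with quantile normalization. NKD2 stayed between 0.325 and 0.772 FPKM.

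Of the TCF/LEF factors, the DNA-binding partners of beta-catenin, all 3 tested were higher with either siRNA. The share of all genes tested that were higher was 33.2% with siEWSR1 and 35.7% with siFLI1. TCF7 was tested only through the siEWSR1 or siFLI1 libraries and was bound to differ, and LEF1 was under the level filter. TCF7L2 (chromosome 10, 114710009 to 114927436) stood at 4.81 and 4.94 FPKM with siNeg, 24.7 and 31.8 with siEWSR1, and 24.7 and 27.2 with siFLI1. Both siNeg libraries lay far below the other 4, and the log2 change was 2.41 ± 0.12 (5.31-fold, adjusted p = 1.87e-05) and 2.30 ± 0.12 (4.91-fold, adjusted p = 1.78e-05). TCF7L1 (chromosome 2, 85360583 to 85537511), which acts mostly as a repressor, stood at 6.64 and 7.88 FPKM with siNeg, 16.1 and 15.7 with siEWSR1, and 19.1 and 18.2 with siFLI1. On the log2 scale it changed by 1.08 ± 0.09 (adjusted p = 9.77e-05) and 1.31 ± 0.09 (adjusted p = 4e-05), again with no overlap between siNeg and the rest.

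The ratio of TCF7L2 to TCF7L1 FPKM went from 0.724 and 0.627 with siNeg to 1.53 and 2.02 with siEWSR1 and 1.29 and 1.49 with siFLI1. Summed over the 4 factors, FPKM went from 12.2 and 13.7 with siNeg to 42.0 and 48.8 with siEWSR1 and 45.3 and 46.4 with siFLI1. TCF7, the T cell factor, stood at 0.764 and 0.815 FPKM with siNeg, 1.27 and 1.22 with siEWSR1, and 1.40 and 1.03 with siFLI1. It passed with siEWSR1 (0.44 ± 0.13, adjusted p = 0.0246) and siFLI1 (0.40 ± 0.13, adjusted p = 0.0325), but with quantile normalization the siEWSR1 change was 0.035 (adjusted p = 0.853) and the siFLI1 direction flipped (-0.084, adjusted p = 0.645). The TCF7 change with siFLI1 was 0.24 without the first siFLI1 library, and both TCF7 calls were lost without the level filter and without either siNeg library, the siEWSR1 call also without either siEWSR1 library. LEF1 never exceeded 0.0319 FPKM.

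In the direct contrast, 3 of the 31 tested genes were lower with siEWSR1 than with siFLI1 (DKK1, DKK3 and WNT5B), none was higher and 28 did not pass. That is 9.68% against 3.86% of all genes tested, of which 0.79% were higher and 3.07% lower. Of the 23 genes measured in every library, 2 were lower, DKK3 and WNT5B. The count over the 31 was 0 to 2 when any library was left out, 0 without either siFLI1 library, and 1 in the fit of these groups alone. WNT5A passed as higher with siEWSR1 once the first siEWSR1 library was left out. A miss of the threshold does not show that the siRNAs act alike, since each group had 2 libraries.

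Other genes of the pathway were taken as 6 lists by role, read against the shares of all genes called. With siEWSR1, 33.2% of all genes tested were higher and 31% lower, and with siFLI1 35.7% and 29.6%. Of 6 tested genes for WNT secretion and ligand shut-off, 1 was higher and 3 lower with either siRNA (medians -0.13 and -0.20). SULF2, a sulfatase that trims heparan sulfate on the cell surface, went from 0.785 ± 0.115 FPKM with siNeg to 98.5 ± 15.3 with siEWSR1 and 106 ± 8.79 with siFLI1 (SD, n = 2), log2 changes of 6.26 ± 0.12 (limma, adjusted p = 1.62e-06) and 6.37 ± 0.12 (adjusted p = 1.08e-06). PORCN, which adds the lipid that ligands need for secretion, fell from 4.81 ± 0.30 FPKM to 2.84 ± 0.40 and 3.43 ± 0.18, and the heparan sulfate proteoglycan GPC4 fell from 39.1 ± 5.21 to 15.6 ± 0.40 and 18.1 ± 0.23. SULF1, the paralog of SULF2, was the third gene lower, by -0.31 and -0.19, the latter a call at the threshold that was lost in 9 alternative fits, and the siFLI1 call of PORCN was lost without the second siNeg or second siFLI1 library. The list's split was 2 higher and 3 lower with quantile normalization in both comparisons, and 2 and 2 with upper quartile scaling for siFLI1.

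Of 7 tested other extracellular antagonists, 2 were higher and 3 lower with siEWSR1, and 3 higher and 3 lower with siFLI1 (medians 0.10 and 0.26). Among all genes tested, 33.2% were higher and 31% lower with siEWSR1, and 35.7% and 29.6% with siFLI1. IGFBP4, a growth factor binding protein that also binds frizzled and LRP6, went from 49.1 ± 0.88 FPKM to 139 ± 3.67 with siEWSR1 and 239 ± 13.8 with siFLI1, log2 changes of 1.49 ± 0.06 (limma, adjusted p = 8.64e-06) and 2.27 ± 0.06 (adjusted p = 2.02e-06). Its difference between the siRNAs was -0.78 ± 0.06 (adjusted p = 0.00446). TPBG, a membrane protein that dampens beta-catenin signalling, rose by 0.61 and 0.76, and KREMEN1, a DKK1 receptor, by 0.26 with siFLI1 (adjusted p = 0.0154), a call lost without the first siNeg or first siFLI1 library. CER1, a secreted antagonist of embryonic head formation, fell from 10.4 ± 0.76 FPKM to 3.79 ± 0.85 and 3.15 ± 0.18, FRZB, a relative of the SFRP proteins, fell by 0.61 and 0.49, and APCDD1, a membrane inhibitor, fell by 0.49 and 0.24.

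Of 17 tested non-canonical receptors and planar polarity genes, 10 were higher and 3 lower with siEWSR1, and 9 higher and 2 lower with siFLI1 (medians 0.37 and 0.28). Among all genes tested, 33.2% were higher and 31% lower with siEWSR1, and 35.7% and 29.6% with siFLI1. ROR2, a receptor for WNT5A, went from 0.91 ± 0.14 FPKM to 2.93 ± 0.20 and 3.56 ± 0.31, log2 changes of 1.28 ± 0.11 (limma, adjusted p = 0.000132) and 1.53 ± 0.11 (adjusted p = 5.91e-05). LGR6, the third R-spondin receptor, went from 0.195 ± 0.023 FPKM to 6.57 ± 1.00 and 7.75 ± 1.02, log2 changes of 3.34 ± 0.13 (adjusted p = 8.58e-06) and 3.57 ± 0.13 (adjusted p = 5.52e-06). LGR6 stood in this list only because it was not among the 58 genes. The planar polarity gene PRICKLE2 rose by 1.30 and 1.46, the cilium genes FUZ and INTU fell by 0.54 and 0.43 with siEWSR1 and by 0.34 and 0.38 with siFLI1, and the receptor RYK fell by 0.20 with siEWSR1 (adjusted p = 0.0249). The RYK call was lost without the first siNeg library or either siEWSR1 library, and the siFLI1 call of INTU without the first siNeg library. The siFLI1 split was 7 higher and 3 lower with quantile normalization.

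All 26 cytoplasmic transducers and destruction complex genes were tested, with 14 higher and 4 lower with siEWSR1 and 15 higher and 7 lower with siFLI1 (medians 0.34 and 0.28). Among all genes tested, 33.2% were higher and 31% lower with siEWSR1, and 35.7% and 29.6% with siFLI1. CXXC5, which binds Dishevelled, went from 1.11 ± 0.08 FPKM to 10.5 ± 1.15 and 11.4 ± 1.57, log2 changes of 2.78 ± 0.12 (limma, adjusted p = 1.02e-05) and 2.88 ± 0.12 (adjusted p = 7.72e-06). DACT3, another Dishevelled antagonist, rose by 2.33 and 2.39, and RNF146, a ligase that degrades axin, by 0.92 and 1.00. CDK14, a kinase that primes LRP6, fell from 27.8 ± 1.5 FPKM to 12.9 ± 0.77 and 13.7 ± 0.35. FBXW11, a ubiquitin ligase subunit that recognises beta-catenin, fell by 0.46 with siEWSR1 and the Dishevelled gene DVL1 by 0.34 (adjusted p = 0.038), a call lost in 9 alternative fits. The casein kinase genes CSNK1G3 and CSNK1E fell by 0.37 and 0.26 with siFLI1, calls lost without the first siNeg library, and without the first siFLI1 library for CSNK1G3 and the second for CSNK1E. The siEWSR1 split was 14 higher and 7 lower with median centring, and the siFLI1 split 10 and 8 with quantile normalization.

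Of 19 tested nuclear cofactors and repressors, 13 were higher and none lower with siEWSR1, and 15 higher and 1 lower with siFLI1 (medians 0.43 and 0.46). Among all genes tested, 33.2% were higher and 31% lower with siEWSR1, and 35.7% and 29.6% with siFLI1. The Groucho-type corepressors TLE1 and TLE4, which bind TCF factors, were among the higher genes of this list. TLE1 went from 0.335 ± 0.047 FPKM to 3.0 ± 0.04 and 2.84 ± 0.42, log2 changes of 2.07 ± 0.11 (limma, adjusted p = 2.68e-05) and 2.00 ± 0.11 (adjusted p = 2.43e-05). TLE4 went from 1.00 ± 0.12 FPKM to 4.56 ± 0.59 and 3.49 ± 0.31, and SOX9, a factor that promotes beta-catenin turnover, from 2.11 ± 0.19 to 6.85 ± 0.29 and 5.80 ± 0.29. HIPK2, a kinase gene and the one lower with siFLI1, changed by -0.24 (adjusted p = 0.0439), a call lost in 7 alternative fits.

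Of 22 tested textbook WNT target genes, 7 were higher and 9 lower with siEWSR1 and 7 higher and 7 lower with siFLI1 (medians -0.17 and -0.11). Among all genes tested, 33.2% were higher and 31% lower with siEWSR1, and 35.7% and 29.6% with siFLI1. SNAI2, a transcription factor of mesenchymal cells, went from 0.601 ± 0.096 FPKM to 9.14 ± 1.43 and 9.51 ± 1.68, log2 changes of 3.12 ± 0.15 (limma, adjusted p = 1.74e-05) and 3.18 ± 0.15 (adjusted p = 1.32e-05). The ephrin receptors EPHB3 and EPHB2 rose by 2.54 and 1.98 with siEWSR1 and by 2.31 and 1.96 with siFLI1. MYC, a growth regulator, fell from 61.3 ± 0.58 FPKM to 22.8 ± 4.24 and 20.2 ± 1.39, log2 changes of -1.42 ± 0.12 (adjusted p = 0.000131) and -1.58 ± 0.12 (adjusted p = 7.63e-05). CCND1, a cyclin that is also on the Ewing sarcoma marker list, fell from 307 ± 4.06 FPKM to 124 ± 23.6 and 118 ± 12.1, and ID2, a transcription inhibitor, from 262 ± 12.2 to 119 ± 22.9 and 115 ± 5.88. As over all genes, the targets went both ways. Within the 58 genes, the targets AXIN2 and TCF7 were higher, with calls that did not hold under quantile normalization. LGR5 and NKD1, also known targets, were lower, and LEF1 was under the level filter. TCF7 was tested only through the siEWSR1 or siFLI1 libraries and NKD1 only through the siNeg libraries.

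**Figure D5:**
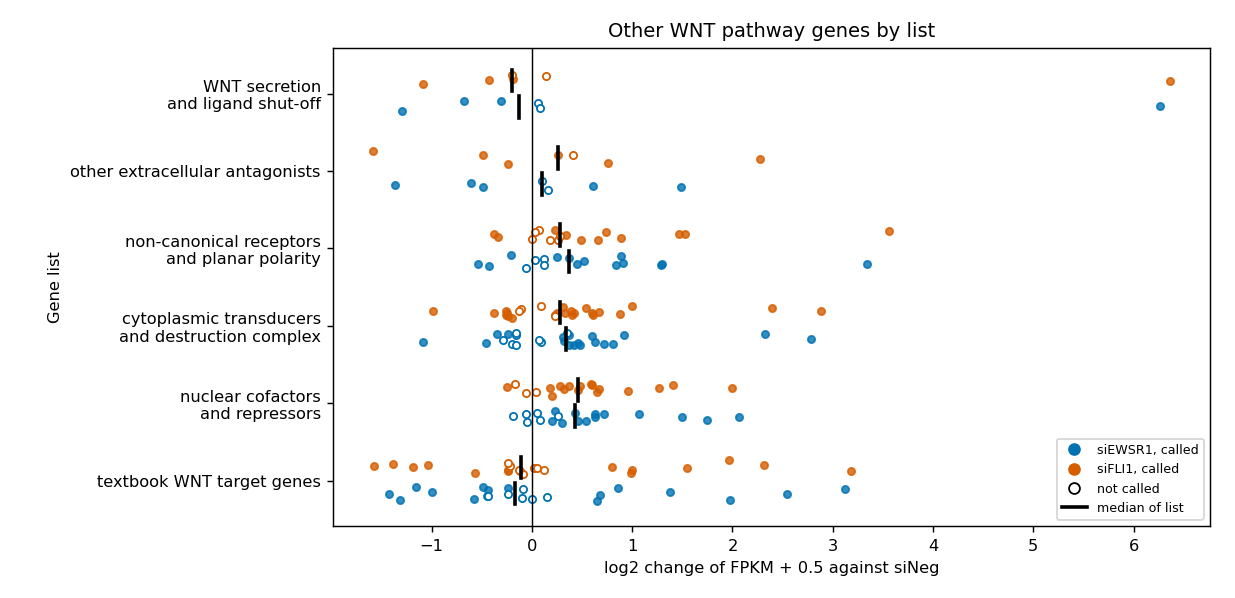
Log2 change of FPKM + 0.5 against siNeg for each tested gene of 6 WNT pathway lists; filled points passed an adjusted p of 0.05, open points did not, and bars mark each list's median. The nuclear list lies mostly above 0 with medians of 0.43 and 0.46, the target list lies on both sides, and SULF2 stands apart above 6.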

How the data were processed

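FPKM values and their intervals were made by the authors and deposited per gene and library. Per the submitters' processing notes, TopHat2 2.0.13, Cufflinks and Cuffdiff were used with hg19. Annotation, strand setting and library kit are not given in the sources here. Rows were joined by gene and position, and rows of one symbol were summed. Starts are printed counting from 1. The files were read as counting from 0, which gave 6149 of 23769 symbols their RefSeq length, against 579 when read as counting from 1.

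The fit was on log2(FPKM + 0.5), in limma 3.58.1 (R 4.3.3), 1 fit over all 6 libraries with a mean-variance trend (3 residual and 3.39 prior degrees of freedom), over 13043 genes at 1 FPKM or more in at least 2 libraries. P-values are two-sided and Benjamini-Hochberg adjusted over all genes tested, with a threshold of 0.05. The scale understates changes of low genes. The values are not counts, and no count model was used; fragments per gene were implied by reading each interval as a Poisson range. The limma fit, and not the fragment reading, was checked on simulated libraries in which few genes were changed. That check does not cover data where most genes are called, as here. Whether replicates came from separate cultures is not in the labels. The p-values therefore reflect only how these libraries scatter, which can be technical. The replicates were not paired in the fit.

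Named genes are members changed at least 1.5-fold in a called comparison or with a mean of at least 5 FPKM in a group, up to 3 genes called each way per pathway list and comparison with siNeg, and EWSR1 and FLI1; other genes named were chosen after their values were seen. The members and lists were chosen with earlier results of these data known. In all, 18 alternatives were tried, among them other pseudocounts, filters, scalings and variance models, a replicate block and leaving out each library. Of the 58 genes, 11 overlap another listed gene.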

Additional observations from a re-analysis of the deposited data

Results flagged for a closer look

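DKK1, DKK3 and WNT5B passed the threshold in the direct contrast of the 2 siRNAs (limma, 31 WNT genes tested, p adjusted over 13043 genes). The log2 difference, siEWSR1 minus siFLI1, was -0.53 for DKK1 (adjusted p = 0.0411), -0.84 for DKK3 (adjusted p = 0.0159) and -0.73 for WNT5B (adjusted p = 0.0184). None of these calls held in all alternatives. Without the level filter the adjusted p-values were 0.108, 0.063 and 0.07, all 3 calls were also lost without either siFLI1 library, and that of DKK1 was lost in 13 of 18 alternatives. In each case both siFLI1 libraries were above both siEWSR1 libraries, and both of these above both siNeg libraries. IGFBP4, an antagonist outside the 58 genes, had the same order, at -0.78 (adjusted p = 0.00446). EWSR1 changed by -0.48 with siEWSR1 and FLI1 by -0.29 with siFLI1, and the part of the extent of knockdown in these differences was not tested.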

How the results depend on the processing

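Of the log2 changes of single WNT genes over all alternatives, 1529 kept their side of the threshold, 61 lost the call and 15 gained one. Changes called in neither fit are counted among the 1529 even where their sign flipped. A further 3 reversed direction with a call in 1 of the fits compared. All were with siFLI1 under quantile normalization: AXIN2 (-0.063), TCF7 (-0.084) and FZD5 (-0.44, from 0.05 not called). DKK1, SFRP1, WNT11, DKK2, DKK3, WNT5B, LGR4, LGR5, NKD1, TCF7L1 and TCF7L2 against siNeg were called in every alternative that tested them; the cause of lost calls elsewhere was not tested. Counts of WNT genes moved as follows. With a mean of at least 5 FPKM, which leaves fewer genes, 7 were higher and 3 lower with siEWSR1, 6 and 2 with siFLI1, and 1 was lower in the direct contrast, and 2518 and 2787 of all genes were higher with siEWSR1 and siFLI1. Without the filter, 25 were higher with siFLI1 and 0 lower in the direct contrast. With quantile normalization, 9 were lower with siFLI1. Leaving out each library in turn gave 2 to 7 lower with siEWSR1 (2 without siNeg replicate 2), 2 to 5 lower with siFLI1 (2 without either siNeg library), and 0 to 1 higher and 0 to 2 lower in the direct contrast. In that contrast, genes higher and lower numbered 15 and 73 without the filter, 185 and 640 with a robust trend, 57 and 262 with the replicate block and 12 and 99 with only its groups fitted (main 103 and 401); genes higher numbered 209 with quantile normalization and 155 with upper quartile scaling, and leaving out each library gave 3 to 107 higher and 1 to 621 lower. The lowest pair came without siFLI1 replicate 2. With only its groups fitted, 1 WNT gene was lower.

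The replicate numbers were shared by the labels only: deviations of same-numbered libraries correlated at -0.137, -0.053 and 0.069 between group pairs. With the replicate block, WNT genes were 15 higher and 6 lower with siEWSR1, 15 and 5 with siFLI1, and 0 and 2 in the direct contrast, where DKK1 lost its call (adjusted p = 0.0609).

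The pathway lists were put through the same alternatives, chosen after seeing the data. Of their named genes' changes, 1042 stayed and 39 lost the call. Secretion genes: 2 higher without the filter and with quantile normalization (both siRNAs) and with upper quartile scaling (siFLI1), 1 lower at mean 5 FPKM (siFLI1), and 1 to 2 higher and 1 to 4 lower over left-out libraries (siFLI1). Non-canonical genes: 4 higher with either siRNA and 1 lower (siFLI1) at mean 5 FPKM, 1 to 2 lower over left-out libraries (siFLI1). Cytoplasmic genes: 8 and 9 higher at mean 5 FPKM (siEWSR1 and siFLI1), 2 lower with quantile normalization and 7 with median centring (siEWSR1), and over left-out libraries 2 to 5 lower (siEWSR1) and 1 to 7 (siFLI1; 1 without siNeg replicate 1). Nuclear genes: with quantile normalization 1 lower (siEWSR1) and 2 (siFLI1), and 0 lower with siFLI1 without the filter, at mean 5 FPKM, with upper quartile scaling and with the replicate block, 0 to 1 over left-out libraries. Targets: 5 lower at mean 5 FPKM and 5 to 10 over left-out libraries (siEWSR1; 5 without siNeg replicate 1). Low fragment numbers limit WNT11 and RSPO3 with siNeg (1 and 2, and 0.7 and 3 implied fragments).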
